A study of Mus musculus with 4 samples.

Results

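The tropomyosin genes Tpm1, Tpm2, Tpm3 and Tpm4 were followed across 6 cell classes of the adult mouse retina, in long-read single-cell data that give counts for whole transcript isoforms. The members were chosen by gene symbol. They are 4 of 13452 Ensembl genes in the table and hold 23 of its 44325 isoforms and 20994 of its 149645836 counts.

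The 4 libraries came from male C57BL6/J mice (an inbred strain) of wild-type genotype, whose retinas were dissociated into single cells. Of these, 2 had no enrichment, 1 from animals aged 40 days and 1 with no age given. Another, from animals aged 8 weeks, is labelled CD73 enrichment, and the protocol describes depletion of cells that carry CD73, a surface protein of photoreceptors. The last, from animals aged 4 months, is labelled CD90.2 enrichment, a positive selection on a surface protein of neurons. All groups share the genotype and sex. The protocol describes magnetic separation, whereas the design text names fluorescence-activated sorting, and the labels do not say how many animals were pooled. The table has 1 pooled column each for rods, cones, bipolar cells (BC), amacrine cells (AC), retinal ganglion cells (RGC) and Müller glia (MG), the radial glial cells of the retina. The columns name no library, so which ages and enrichments a column holds is not known. A class is 1 sample, no test between classes was made, and the intervals below cover counting error only. They are exact 95% intervals, Poisson for levels and Clopper-Pearson for shares. Both kinds treat each count as independent. Whether counts are reads or molecules is not given, and several reads of 1 molecule would make the intervals too narrow.

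Tropomyosins are coiled-coil proteins that lie end to end along the groove of the actin filament. They set which myosins, severing proteins and capping proteins reach the filament, and in muscle they act with troponin to switch contraction on and off. The genes make isoforms from a shared body, exons 3, 4, 5, 7 and 8, by up to 3 choices, which not every gene has. The first exon is either the upstream exon 1a, which is followed by exon 2 and gives the long, high-molecular-weight proteins, or the internal exon 1b, which gives the short, low-molecular-weight ones. Exon 6 is taken as 6a or as 6b, a pair known as mutually exclusive. The end is exon 9a, typical of striated muscle, 9c, typical of brain, or 9d, typical of non-muscle and smooth muscle cells, with 9b as a further end in Tpm1.

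Levels are counts scaled to a column total of 1000000 (CPM). The column totals ran from 3509890 counts (RGC) to 55437340 (rods). A level of 0 was read as 3 counts, which is 0.0541 CPM in rods and 0.855 CPM in RGC. Of 36 marker genes of the 6 classes, all 36 were highest in their own class. How cells were typed is not given, and such markers may have been used for it, so this does not measure how pure a column is. The 6 rod markers summed to 5065 CPM in rods and to 217 CPM in cones. In the rod column the cone markers summed to 1671 CPM, against 83979 in cones. The bipolar markers summed to 869 CPM in rods, against 23959 in BC, and the microglial ones to 454 CPM in rods. Other columns held such sums too, for example 722 CPM of cone markers in BC and 382 CPM of ganglion cell markers in AC. The part of these sums in the tropomyosin values was not tested. The MG column also had the highest sums for pericyte and smooth muscle, endothelial, microglial, pigment epithelium and astrocyte markers, given with the Tpm2 results.

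The exon 6 pair is shown first, because its use differed between classes in 3 of the 4 genes. The sequences were rebuilt from GENCODE M21 transcripts of build mm10, each exon is 76 bases long and coding, and none of the letters is marked in these 6.

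Tpm1 exon 6a, chr9:67032466-67032541, minus strand: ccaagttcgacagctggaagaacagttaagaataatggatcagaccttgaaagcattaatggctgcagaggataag
Tpm1 exon 6b, chr9:67031951-67032026, minus strand: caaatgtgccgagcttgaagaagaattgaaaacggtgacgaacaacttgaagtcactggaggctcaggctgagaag
Tpm2 exon 6a, chr4:43519003-43519078, minus strand: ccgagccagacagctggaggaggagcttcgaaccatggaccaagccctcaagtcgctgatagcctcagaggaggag
Tpm2 exon 6b, chr4:43518644-43518719, minus strand: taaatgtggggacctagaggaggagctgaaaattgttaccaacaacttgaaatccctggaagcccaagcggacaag
Tpm3 exon 6a, chr3:90088401-90088476, plus strand: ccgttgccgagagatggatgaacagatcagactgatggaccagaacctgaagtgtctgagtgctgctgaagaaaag
Tpm3 exon 6b, chr3:90089048-90089123, plus strand: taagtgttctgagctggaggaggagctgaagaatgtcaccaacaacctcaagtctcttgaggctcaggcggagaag

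Each of these exons is closer to its counterpart in another gene than to its partner in the same gene. Tpm1 6b matched Tpm3 6b at 57 of 76 bases (75%) and its own 6a at 43 (56.6%). Tpm3 6b matched Tpm2 6b at 58 bases (76.3%) and its own 6a at 39 (51.3%). The 6a exons matched each other at 47 to 50 bases. A length of 76 is 1 base more than a whole number of codons, so a transcript keeps its reading frame with either exon and shifts frame with both.

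All 23 isoforms had a deposited model, 11 for Tpm1, 4 for Tpm2, 6 for Tpm3 and 2 for Tpm4. Of these, 11 carry an Ensembl transcript identifier and the introns of that transcript. The other 12 are unannotated, and none of their spliced models had the chain of introns of an M21 transcript. Unannotated isoforms held 25.7% (24.5 to 26.9) of the Tpm1 counts, 43.7% (41.2 to 46.2) of Tpm2, 58.0% (57.1 to 58.9) of Tpm3 and 18.7% (17.2 to 20.2) of Tpm4. Over all Ensembl genes the share was 5.58%. By class the unannotated share of Tpm1 was 70.0% in rods and 69.6% in cones, against 18.2% in BC, 18.6% in AC and 26.7% in RGC.

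**Figure D1:**
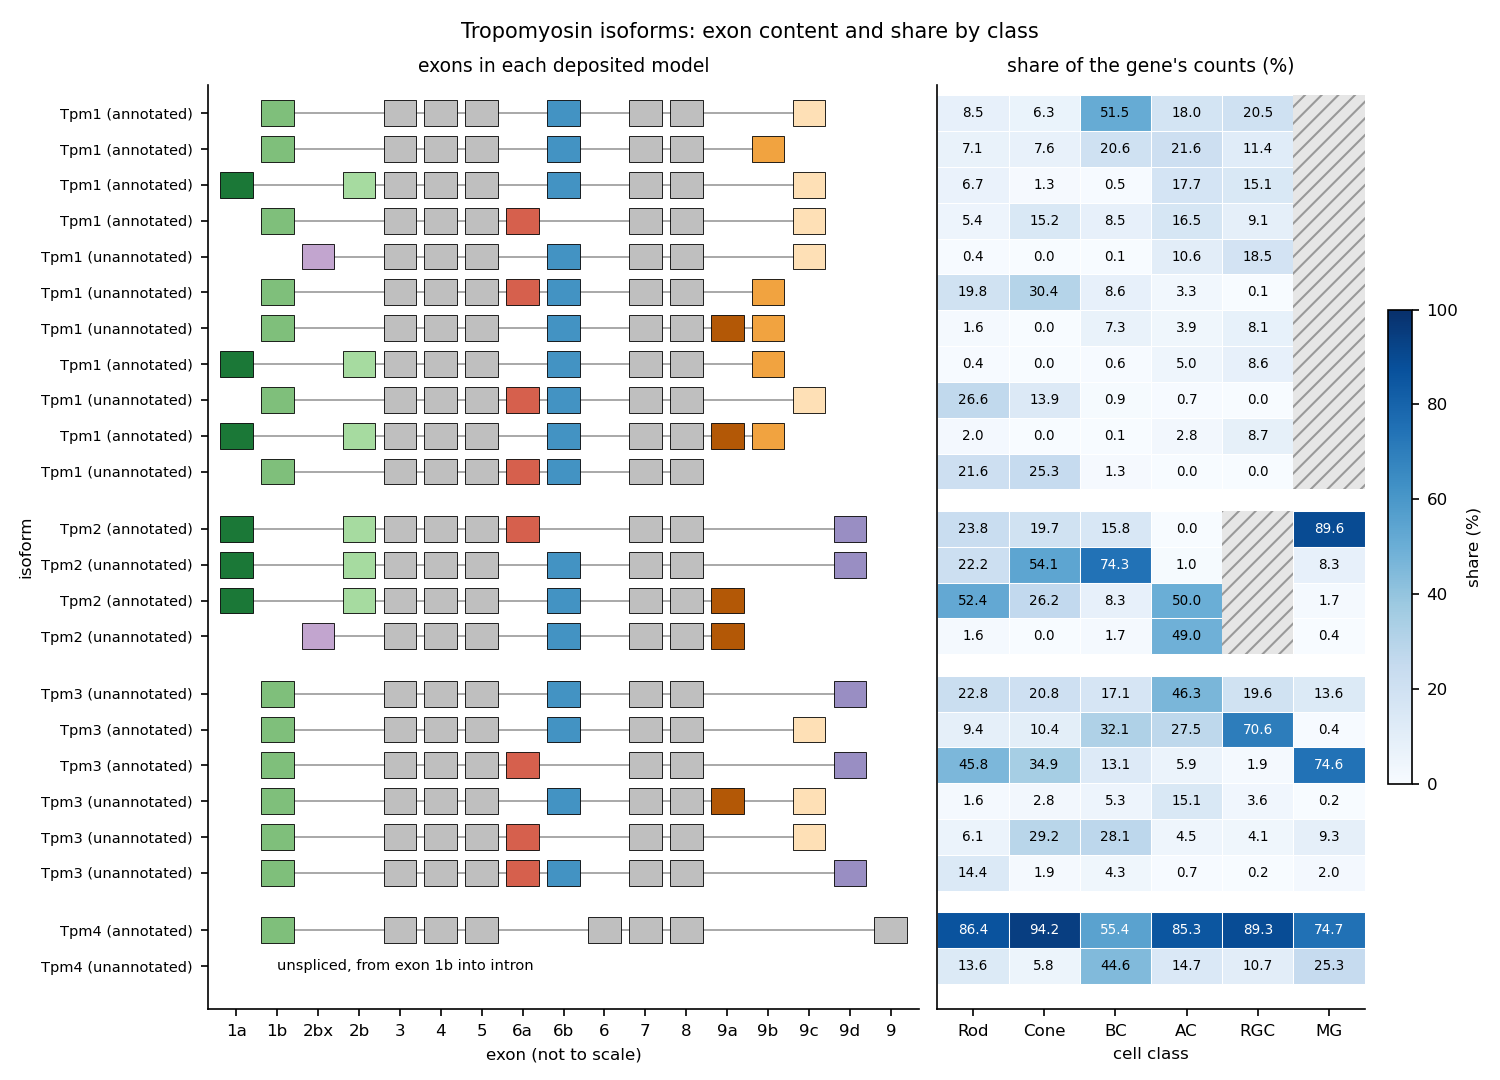
Exon content of the 23 tropomyosin isoforms (left, exons not to scale, alternative exons in colour, 2bx for an exon 2b extended at its start) and the share of the gene's counts each held in a class (right, percent; hatched where the gene had fewer than 20 counts). The Tpm1 models with both 6a and 6b have their highest shares in rods and cones, and 1 Tpm2 model holds 89.6% of the MG counts.

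Tpm1 (ENSMUSG00000032366.15, chr9:67022590-67049406, minus strand) encodes the alpha tropomyosin of heart and fast muscle and several forms of brain and other cells. Its level was 230 CPM in RGC (214 to 246, 806 counts), 59.4 in AC (2866 counts), 29.7 in BC (862), 10.8 in cones (79), 8.95 in rods (496) and 2.12 in MG (13 counts). The highest class, RGC, was 3.87-fold above AC (3.57 to 4.18) and 108-fold above MG. Only the cone and rod levels, neighbours in this order, had a ratio whose interval includes 1 (1.21). In pooled columns, fewer expressing cells and less RNA per cell cannot be told apart.

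Tpm2 (ENSMUSG00000028464.16, chr4:43514711-43523765, minus strand) encodes the beta tropomyosin of skeletal and smooth muscle. Its level was 88.0 CPM in MG (80.8 to 95.8, 540 counts), 18.8 in BC (544 counts), 8.35 in cones (61), 6.43 in AC (310) and 1.14 in rods (63). RGC had 0 of 3509890 counts. MG was 4.70-fold above BC (4.16 to 5.30), and 103-fold above RGC if the 0 of RGC is read as 3 counts. The exact upper limit of the RGC level was 1.05 CPM. Cones and AC were neighbours with a ratio of 1.30 whose interval includes 1.

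Tpm3 (ENSMUSG00000027940.18, chr3:90072649-90100902, plus strand) encodes the tropomyosin of slow muscle and, from its internal start, widely used cytoskeletal forms. The level was 180 CPM in RGC (632 counts), 148 in AC (7136), 82.8 in MG (508), 58.6 in BC (1701), 27.0 in rods (1495) and 14.5 in cones (106). RGC was 1.22-fold above AC (1.12 to 1.32) and 12.4-fold above cones. Tpm4 (ENSMUSG00000031799.10, chr8:72134975-72153142, plus strand), a gene of short cytoskeletal tropomyosin, was at 79.8 CPM in RGC (280 counts), 40.6 in MG (249), 29.9 in AC (1444), 12.1 in BC (352), 9.44 in cones (69) and 6.89 in rods (382). The range between its highest and lowest class was 11.6-fold, and BC and cones had a ratio of 1.28 whose interval includes 1. For Tpm1, Tpm3 and Tpm4 RGC was the highest class, and for Tpm2 it was the class at 0. The RGC column, the smallest, had counts for 12483 isoforms, against 22365 in MG, 22743 in cones and 36426 in rods. The part of this in the RGC levels, zeros and class-restricted isoforms was not tested.

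By a rule of size, a gene is class-enriched when it has at least 100 counts and is at least 2-fold above every other class. Tpm1 (in RGC) and Tpm2 (in MG) met it, 2 of 4 genes, against 29.9% of 9868 genes tested (4.26% in RGC and 8.28% in MG). Tpm3 was at 1.22-fold. Tpm4 was just under the threshold at 1.96-fold (1.65 to 2.34). It was at 1.66-fold with either other column scaling, and at 2.35-fold when its unspliced isoform was left out, an alternative added after seeing the data.

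**Figure D2:**
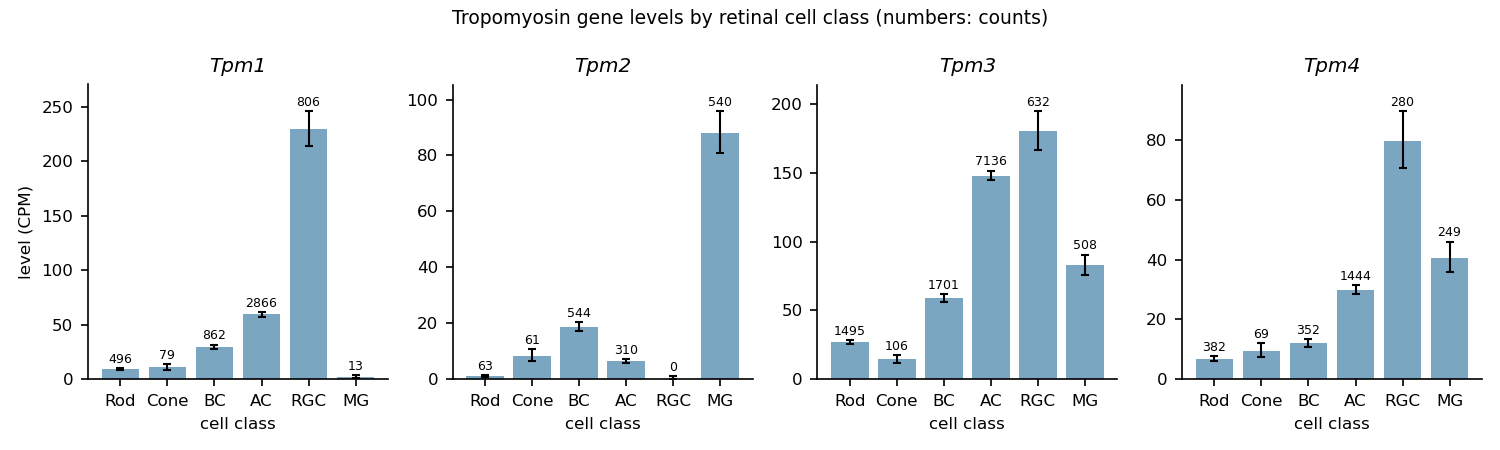
Level of each tropomyosin gene by class in CPM, counts scaled to a column total of 1000000 (bars), with exact Poisson 95% intervals for counting error and the counts above each bar; each panel has its own axis from 0. Tpm1 reaches 230 CPM in RGC, Tpm2 is highest in MG at 88.0 CPM and is at 0 in RGC.

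In the photoreceptor columns most Tpm1 counts came from isoforms that hold both exon 6a and exon 6b. Rods had 337 of 496 counts in such isoforms, 67.9% (63.6 to 72.0), and cones 55 of 79, 69.6% (58.2 to 79.5). The share was 10.8% in BC (93 of 862), 4.08% in AC (117 of 2866) and 0.124% in RGC (1 of 806; 0.00314 to 0.689). MG had 2 of 13 counts, too few for a share. The intervals of rods and cones overlapped each other and neither reached that of another class with at least 20 counts.

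These Tpm1 transcripts are 3 unannotated isoforms, each starting in exon 1b. They end in 9c (132 counts in rods, 11 in cones, 21 in AC, 8 in BC), in 9b (98, 24, 96 and 74) or inside an exon 8 that runs on into its intron (107, 20, 0 and 11). The last was at 0 in AC and RGC, where 0 of 2866 and 0 of 806 counts allow shares of up to 0.129% and 0.457%. The double-exon forms of AC and BC mostly ended in 9b (82.1% and 79.6% of them), and those of rods were spread over the 3 ends.

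The double-exon Tpm1 isoforms and those with only 1 of the pair had different orders of level. Double-exon isoforms were at 7.53 CPM in cones (5.67 to 9.80), 6.08 in rods (5.45 to 6.76), 3.21 in BC (2.59 to 3.93), 2.42 in AC (2.01 to 2.91), 0.326 in MG and 0.285 in RGC (1 count). Isoforms with 6a or 6b alone were at 229 CPM in RGC, 57.0 in AC, 26.5 in BC, 3.28 in cones, 2.87 in rods and 1.79 in MG. Rods and cones were thus high in the first quantity and low in the second.

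Read from the annotated start in exon 1b, the frame of a double-exon Tpm1 transcript meets a stop inside exon 6b after 182 codons. That stop lies 191 bases before the last exon junction in the forms ending in 9c and 9b, and 121 bases before it in the form ending in exon 8. The other spliced isoforms with an annotated start have 245 to 287 codons and stop in their last exon. The stretch from the start of exon 6a to the stop is shown here in the transcript's direction, with the stop codon in capitals, for Tpm1 and for the one Tpm3 isoform of this kind, whose frame stops after 177 codons, 206 bases before the last junction.

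Tpm1, exon 6a to the stop in 6b: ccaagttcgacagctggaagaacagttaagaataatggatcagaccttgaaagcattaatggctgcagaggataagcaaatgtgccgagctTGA
Tpm3, exon 6a to the stop in 6b: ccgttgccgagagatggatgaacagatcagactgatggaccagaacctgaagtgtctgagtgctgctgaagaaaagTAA

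In Tpm3 the stop is formed by the first 3 bases of exon 6b. The share of Tpm3 counts with both exons was 14.4% in rods (215 of 1495; 12.6 to 16.3), 4.29% in BC (73 of 1701), 1.97% in MG (10 of 508), 1.89% in cones (2 of 106; 0.229 to 6.65), 0.673% in AC (48 of 7136) and 0.158% in RGC (1 of 632). Rods were highest and RGC lowest, and the cone column, at 2 counts, was below rods, whereas in Tpm1 the intervals of rods and cones overlapped. No double-exon isoform of Tpm2 was in the table. The rod marker sum in the cone column was 217 CPM against 5065 in rods, and its part in the cone shares was not tested.

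**Figure D3:**
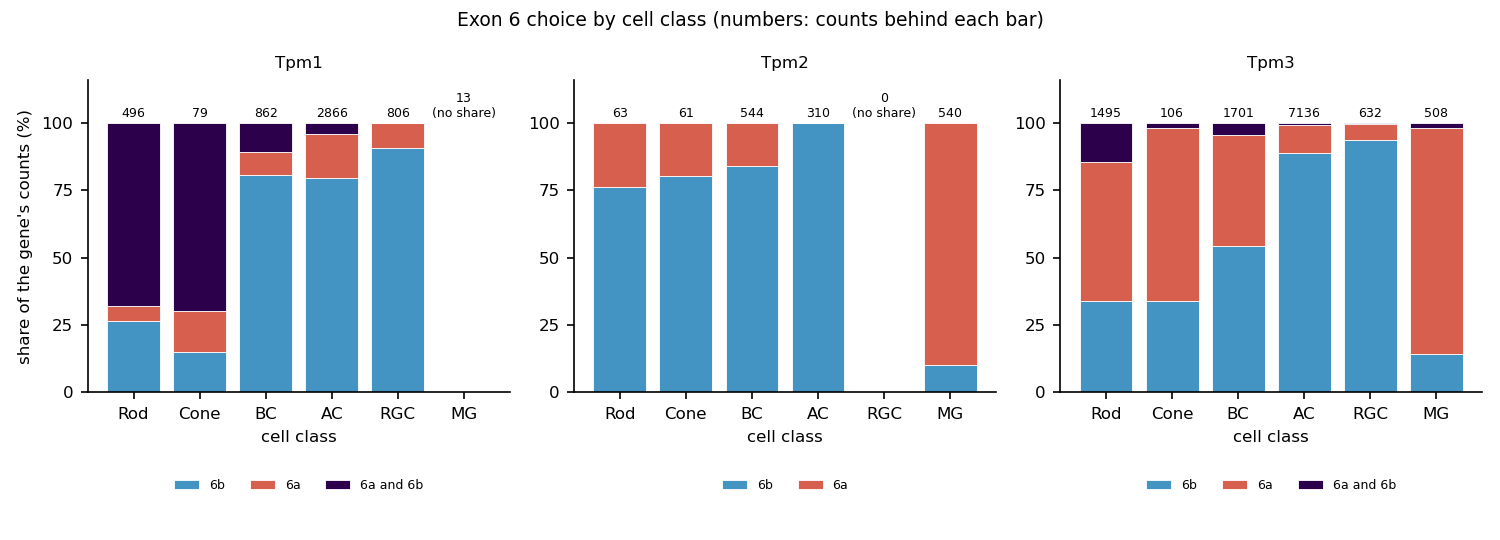
Share of the gene's counts by use of exon 6 in each class (stacked bars, percent), with the counts behind each bar above it and no bar where a gene had fewer than 20 counts. Both exons are held by 67.9% of Tpm1 counts in rods and 69.6% in cones, and MG is the class with the highest share of 6a alone in Tpm2 and Tpm3.

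MG was the class with the highest use of 6a alone in Tpm2 and Tpm3. Over all counts of the gene, the share of 6a alone in Tpm3 was 83.9% in MG (426 of 508; 80.4 to 87.0), 64.2% in cones (68 of 106), 51.8% in rods (775 of 1495), 41.2% in BC (700 of 1701), 10.4% in AC (741 of 7136) and 6.01% in RGC (38 of 632). In Tpm2, where every isoform holds 1 of the pair, it was 89.6% in MG (484 of 540; 86.7 to 92.1), 23.8% in rods (15 of 63), 19.7% in cones (12 of 61), 15.8% in BC (86 of 544) and 0 of 310 in AC, which allows up to 1.18%. In both genes MG was highest, by 77.8 percentage points over RGC in Tpm3 (73.8 to 81.2) and by 89.6 over AC in Tpm2 (86.5 to 91.9). In Tpm1 6a alone was at 16.5% in AC, 15.2% in cones, 9.06% in RGC, 8.47% in BC and 5.44% in rods, and all of these counts were in 1 isoform, 1b with 6a and 9c. With double-exon isoforms left out, the Tpm1 share of 6a was 50% in cones (12 of 24; 29.1 to 70.9), 17.2% in AC, 17.0% in rods (27 of 159), 9.49% in BC and 9.07% in RGC, so that cones and not AC came highest. On the same base the Tpm3 share was 60.5% in rods (775 of 1280) and 85.5% in MG (426 of 498), and the order of the classes stayed. On that base 6b was the more frequent of the pair in BC and AC in all 3 genes, in RGC in Tpm1 and Tpm3, in rods in Tpm1 and Tpm2, and in cones in Tpm2. Tpm4 has a single exon 6 and no such choice.

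The upstream start of Tpm1 was used in RGC and AC. Exon 1a, spliced to exon 2b, opened 32.4% of Tpm1 counts in RGC (261 of 806; 29.2 to 35.7) and 25.4% in AC (728 of 2866; 23.8 to 27.0). The share was 9.07% in rods (45 of 496), 1.27% in cones (1 of 79) and 1.16% in BC (10 of 862). As levels, isoforms from exon 1a were at 74.4 CPM in RGC, 15.1 in AC, 0.812 in rods and 0.345 in BC. Every Tpm1 count from exon 1a was in an isoform with 6b. No isoform with the smooth-muscle exon 2a was in the table.

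A further 18.5% of Tpm1 counts in RGC (149 of 806) and 10.6% in AC (303 of 2866) came from 1 unannotated isoform that starts in an exon 2b extended upstream into the intron, and goes on through 6b to 9c. It had 2 counts in rods, 1 in BC and 0 in cones and MG. Tpm2 had an isoform of the same kind, an extended exon 2b followed by 6b and 9a, with 152 of 310 AC counts, 49.0% (43.3 to 54.7). That isoform had 9 counts in BC, 2 in MG, 1 in rods and 0 in cones, at most 1.65% of the gene. The models do not tell a separate start from an incomplete transcript. With them left out, exon 1a opened 39.7% of Tpm1 counts in RGC (36.0 to 43.6) and 28.4% in AC (26.7 to 30.2), and it was then the only start of Tpm2.

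**Figure D4:**
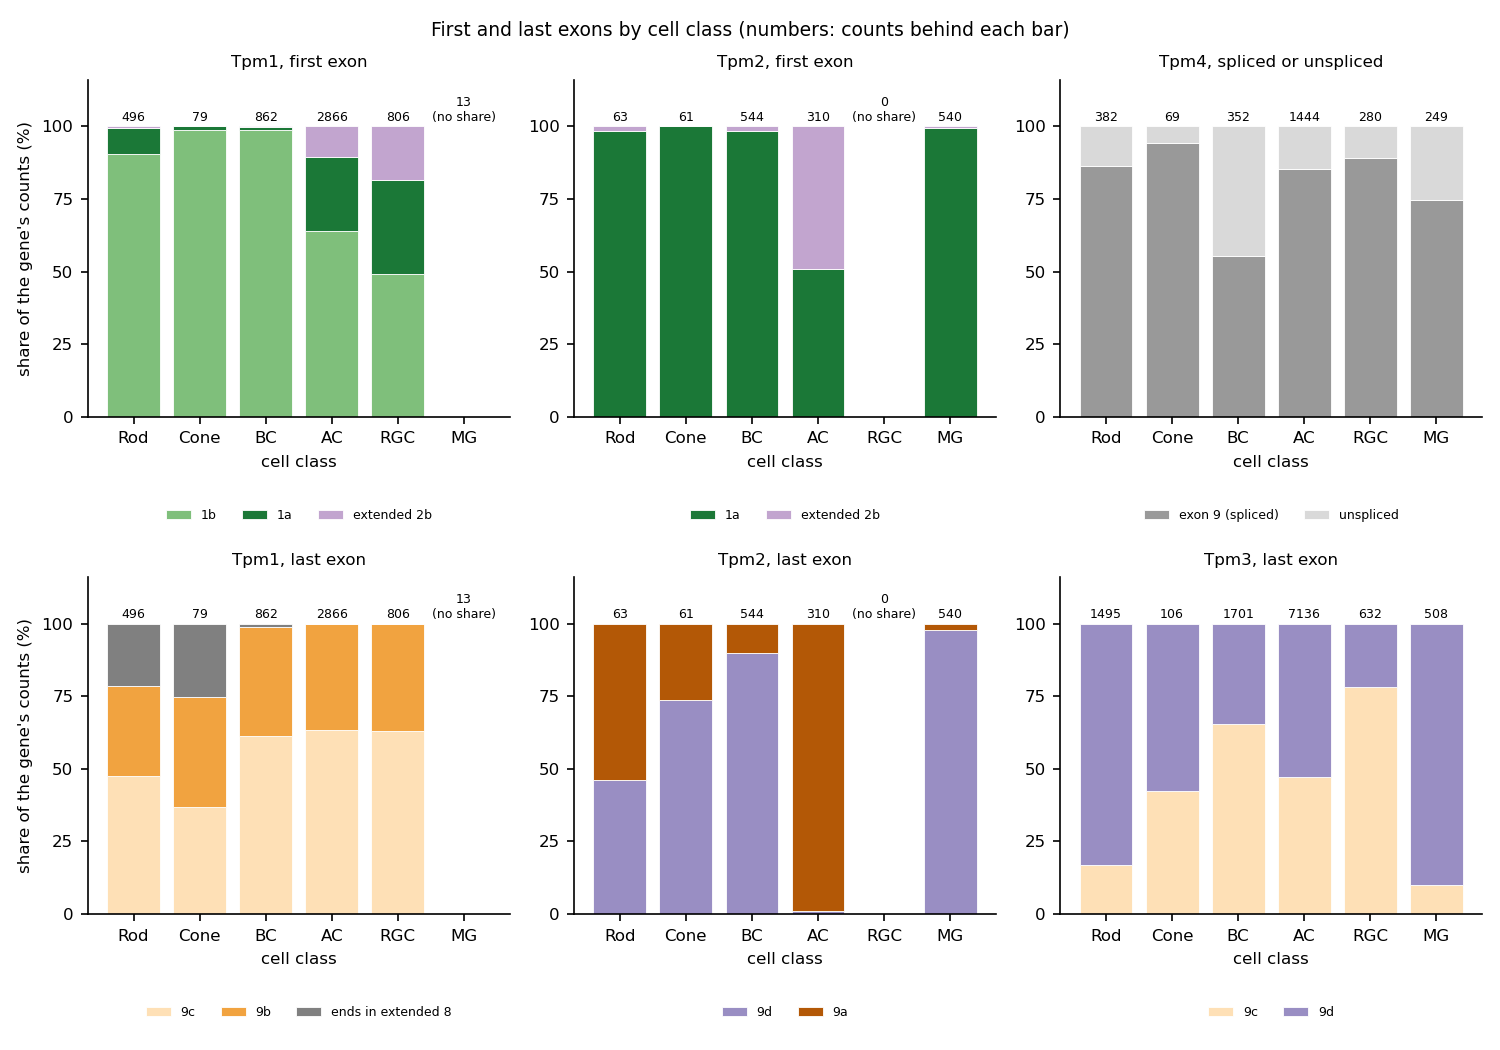
Share of the gene's counts by first exon (Tpm1, Tpm2), by last exon (Tpm1, Tpm2, Tpm3) and by spliced or unspliced isoform (Tpm4) in each class (stacked bars, percent), with the counts behind each bar above it and no bar where a gene had fewer than 20 counts. The Tpm2 end changes from 9a in AC (99.0%) to 9d in MG (98.0%).

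The coding parts of the alternative ends, up to and including the stop codon in capitals, are given for the ends that the class differences below rest on.

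Tpm2 exon 9a, chr4:43515921-43516003, minus strand: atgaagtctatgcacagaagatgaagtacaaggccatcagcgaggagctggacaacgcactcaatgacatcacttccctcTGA
Tpm2 exon 9d, chr4:43514779-43514861, minus strand: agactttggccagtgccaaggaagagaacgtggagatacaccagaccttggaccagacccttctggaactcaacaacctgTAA
Tpm3 exon 9c, chr3:90098375-90098454, plus strand: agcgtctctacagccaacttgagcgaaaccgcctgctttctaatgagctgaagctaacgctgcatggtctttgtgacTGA
Tpm3 exon 9d, chr3:90099528-90099610, plus strand: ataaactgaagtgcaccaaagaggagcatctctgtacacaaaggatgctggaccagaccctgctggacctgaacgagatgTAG

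Tpm2 ended in the striated-type exon 9a in 99.0% of AC counts (307 of 310; 97.2 to 99.8). The share of 9a was 54.0% in rods (34 of 63; 40.9 to 66.6), 26.2% in cones (16 of 61), 9.93% in BC (54 of 544) and 2.04% in MG (11 of 540). The rest ended in 9d, 98.0% in MG and 90.1% in BC. The interval for AC lay above, and that for MG below, those of every other class with Tpm2 counts. The rod shares of Tpm2 rest on a level of 1.14 CPM, beside 18.8 CPM in BC. The bipolar markers summed to 869 CPM in rods against 23959 in BC, and the part of bipolar RNA in the rod shares of Tpm2 was not tested.

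Tpm3 ended in the brain-type exon 9c or in 9d. The share of 9c was 78.3% in RGC (495 of 632; 74.9 to 81.5), 65.5% in BC (1115 of 1701), 47.1% in AC (3359 of 7136), 42.5% in cones (45 of 106), 17.1% in rods (255 of 1495) and 9.84% in MG (50 of 508). Within the AC counts, 1080 of 7136 (15.1%) were of an unannotated isoform that places the striated-type exon 9a between exon 8 and 9c. The same isoform held 5.35% in BC, 3.64% in RGC, 2.83% in cones, 1.61% in rods and 0.197% in MG.

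The ends of Tpm1 varied less. Exon 9c closed 63.4% of counts in AC, 63.2% in RGC, 61.5% in BC, 47.6% in rods and 36.7% in cones (29 of 79; 26.1 to 48.3), with intervals of AC, RGC and BC that overlapped. Exon 9b closed between 30.8% (rods) and 38.0% (cones), a difference of 7.13 points whose interval, -3.63 to 18.8, includes 0. The striated-type exon 9a joined exon 8 and led on to 9b in 16.7% of RGC counts (135 of 806; 14.2 to 19.5), 7.42% in BC, 6.70% in AC, 3.63% in rods and 0 of 79 in cones. No Tpm1 isoform ended in 9d.

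First, internal and last exons were joined in a limited set of ways. In Tpm2 every count with 6a ended in 9d, and every count ending in 9a held 6b. In Tpm1 every count with 6a alone ended in 9c. In Tpm3 all 6 isoforms began in exon 1b and neither exon 1a, 2b nor 9b was in a model, so that only the short forms were seen.

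The isoform with the most counts differed between classes in Tpm2 and Tpm3. In Tpm2 it was 1a-2b-6a-9d in MG (ENSMUST00000107914.9, 484 of 540 counts, 89.6%), the exon combination known from smooth muscle and fibroblasts. In BC and cones it was the unannotated 1a-2b-6b-9d (404 of 544, 74.3%, and 33 of 61, 54.1%). In AC and rods it was 1a-2b-6b-9a (ENSMUST00000107913.9, 155 of 310, 50%, and 33 of 63, 52.4%), the combination of skeletal muscle beta tropomyosin. In AC it was ahead of the isoform from the extended exon 2b by 3 counts.

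In Tpm3 the leading isoform was 1b-6a-9d in MG (ENSMUST00000029549.15-1, 379 of 508 counts, 74.6%), rods (684 of 1495, 45.8%) and cones (37 of 106, 34.9%). It was 1b-6b-9c in RGC (ENSMUST00000119158.7, 446 of 632, 70.6%) and BC (546 of 1701, 32.1%). AC used the unannotated 1b-6b-9d (3307 of 7136, 46.3%). The unannotated 1b-6a-9c, with 992 counts in all, was highest as a share in cones (29.2%) and BC (28.1%).

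In Tpm1 no isoform exceeded 30.4% of the counts in a class with at least 20, except in BC. There 1b-6b-9c (ENSMUST00000113690.7) held 444 of 862 counts, 51.5% (48.1 to 54.9), and it also led in RGC with 165 of 806 (20.5%). The leading isoform was 1b-6b-9b (ENSMUST00000113686.7-1) in AC (618 of 2866, 21.6%). It was the double-exon form ending in 9c in rods (132 of 496, 26.6%) and the one ending in 9b in cones (24 of 79, 30.4%). The long form 1a-2b-6b-9c (ENSMUST00000113693.7) held 17.7% in AC and 15.1% in RGC.

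By a rule of size, the leading isoform switches between a pair of classes when the gene has at least 20 counts in each the leading isoform differs, and the share of 1 of the leading isoforms moves by at least 50 percentage points. Tpm2 met it in 7 of 10 pairs and Tpm3 in 5 of 15, with the largest differences in Tpm2 between AC and MG (89.6 points) and in Tpm3 between MG and RGC (72.7 points). Tpm1 met it in 0 of 10 pairs and Tpm4 in 0 of 15. Among 7317 genes with 2 or more isoforms, 25% switched in at least 1 pair, and over all genes and pairs compared 7.5% did. All 4 classes paired with MG in Tpm2, and 3 of 5 in Tpm3, met the rule. With at least 100 counts in each class in place of 20, 8 tropomyosin pairs switched, and 10.3% of 4739 genes switched in at least 1 pair. The Tpm2 pairs with cones (61 counts) and with rods (63 counts) were then not compared.

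An isoform counts as class-restricted when 1 class holds at least 80% of the CPM summed over the classes. This held for 5 of 23 tropomyosin isoforms, against 27% of 39072 isoforms with at least 10 counts and 11.1% of 22086 with at least 50. Each tropomyosin isoform had at least 138 counts, so the second share is the closer background. In RGC it was the Tpm1 isoforms 1a-2b-6b-9a-9b (ENSMUST00000113685.9, 90.8%), the exon combination of striated muscle alpha tropomyosin, 1a-2b-6b-9b (ENSMUST00000113687.7-1, 86.2%) and the one from the extended exon 2b (87.0%). In MG it was Tpm2 1a-2b-6a-9d (94.2%), and in AC Tpm2 from the extended exon 2b (82.8%). The striated-type Tpm1 form had 70 counts in RGC, 79 in AC, 10 in rods and 1 each in BC and MG, so its place in RGC rests on 70 counts of the smallest column.

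The MG column was the highest for Tpm2, for the Müller glia markers and for the summed markers of several other cell types. The pericyte and smooth muscle list, of which 5 of 8 genes were in the table, was highest in MG for all 5 and summed to 536 CPM there (518 to 555). It summed to 15.5 CPM in BC, 6.26 in AC, 4.38 in cones, 2.07 in rods and 0 in RGC, and Acta2 was at 0 in AC and RGC and Des likewise. Among its members in MG, Tagln was at 162 CPM, Rgs5 at 164, Kcnj8 at 88.9 and Des at 19.2. The 6 Müller glia markers summed to 7377 CPM in MG and the 6 pigment epithelium markers to 8878. Of the latter, 8443 CPM was Ttr, whereas Rpe65 was at 58.4 CPM. Of these 6 genes 5 were highest in MG, and Best1 was at 0 there, at 2.16 CPM in AC and at 2.85 CPM in RGC. In the same column the 6 microglial markers summed to 931 CPM, the 4 astrocyte ones in the table to 106 and the 3 endothelial ones to 28.9. The part of these cells in the MG values of Tpm2, and of the 6a and 9d shares, was not tested.

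Other genes of the actin filament were read from a list of 49. Of these, 36 had at least 100 counts and 19 were class-enriched, 9 in MG, 5 in BC, 3 in RGC, 1 each in cones and rods and 0 in AC. Over all genes tested the shares were 8.28% in MG, 3.65% in BC, 4.26% in RGC, 1.4% in cones, 6.85% in rods and 5.51% in AC. The median ratio of the highest to the next class was 2.18 over the list and 1.46 over all genes. The list was chosen with earlier results of these data known, so its comparison with all genes is a description only.

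Of the class-enriched genes in MG, Acta2, smooth muscle actin, was 119-fold above the next class. Tagln, a smooth muscle actin-binding protein, was 77.1-fold above it, Myl9, a myosin regulatory light chain, 36.3-fold, Tagln2 23.0-fold, the calponin Cnn2 21.9-fold and the calponin Cnn3 7.47-fold. All 5 caldesmon, calponin and transgelin genes tested were class-enriched, 4 in MG and Tagln3, a neuronal member, in RGC (2.03-fold). The pericyte and smooth muscle list was highest in the same column, and 2 genes, Acta2 and Tagln, belong to both lists.

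The BC column, which was second for Tpm2, was the highest for the 2 troponins tested and for 2 of the 5 actins tested. Tnnt1, the slow skeletal troponin T that binds tropomyosin, was at 600 CPM in BC (11.2-fold above cones, the next class). Tnnc1, the slow and cardiac troponin C, was at 39.7 CPM (17.4-fold), the cardiac actin Actc1 at 10.2 CPM (62.6-fold above the 1 count in MG, 11.1 to 2480) and the skeletal actin Acta1 at 20.1 CPM (4.84-fold). All of these met the rule for BC, and Tnni1 was not in the table. In RGC, Tmod3, which caps the pointed end of tropomyosin-coated filaments, was at 175 CPM (2.33-fold above AC) and Dstn, a severing protein, at 877 CPM (2.34-fold).

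**Figure D5:**
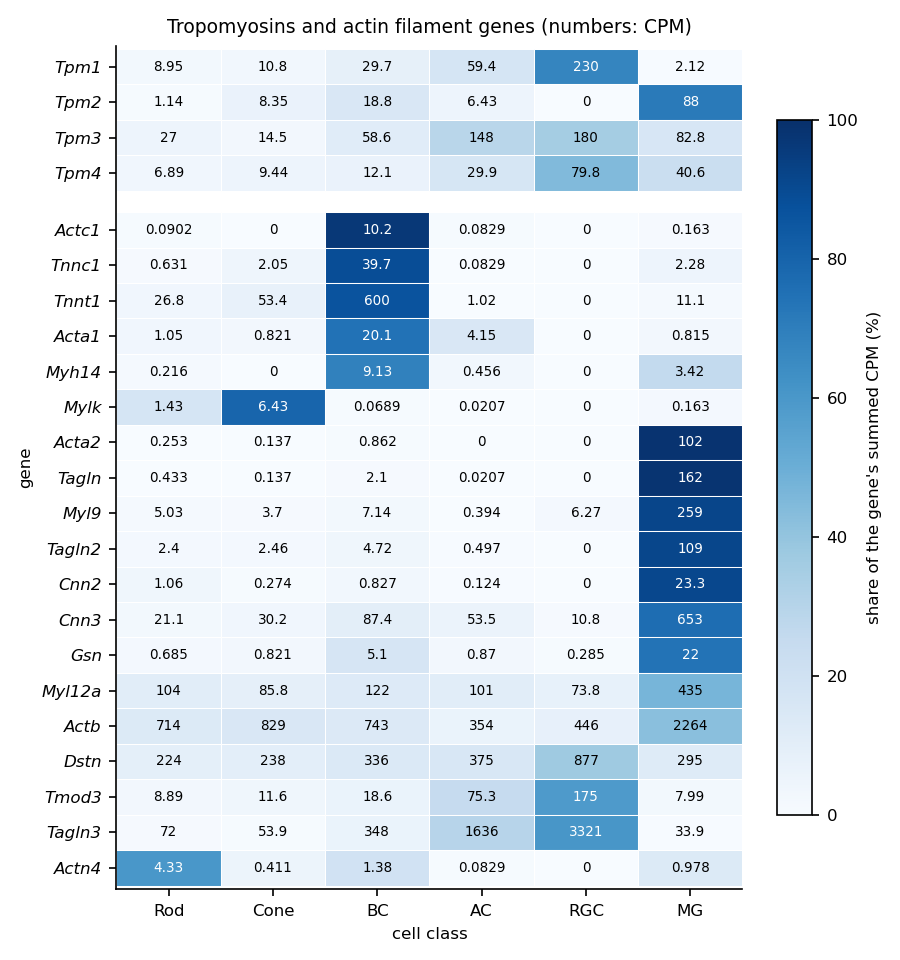
Tropomyosin genes (top) and the 19 class-enriched genes of the actin filament list (below) by class; numbers are levels in CPM and the colour is the class's share of the gene's summed CPM. Troponins and striated actins are highest in BC, Acta2, Tagln and Myl9 in MG beside Tpm2, and Tmod3 in RGC beside Tpm1.

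Among 9867 other genes with at least 100 counts, those whose levels followed each tropomyosin gene most closely over the 6 classes were found by Pearson's r of log2(CPM + 1). The values are descriptions over 6 pooled columns that share their depth between genes. For Tpm1 they were Alkbh6 (r = 0.997), Ina, a neuronal intermediate filament (0.996), and AU022252 (0.996). For Tpm2 they were Mogat1 (0.992), Lrpap1 (0.991) and Fos (0.989), for Tpm3 Gm38182 (0.994), Atg10 (0.994) and Hddc3 (0.987), and for Tpm4 Ppfibp1 (0.989), Atf5 (0.989) and Tmem14a (0.989). Between the members, Tpm3 and Tpm4 had the highest r (0.869) and Tpm1 and Tpm2 the lowest (-0.697). The named genes depended on the scale used, as given under the processing.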

How the data were processed

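The authors deposited a table of whole-number counts per isoform in 6 cell-class columns and an annotation of transcript models, whose exon coordinates are on mm10 per the submitters' processing notes. Whether counts are reads or molecules, which libraries entered a column, and how cells were typed and isoforms filtered are not given in the sources used here. 0 columns were left unused. Counts were used as deposited and scaled to a column total of 1000000 (CPM).

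Exons were named by a fixed procedure from shared splice sites in the deposited models and GENCODE M21, where 13448 of 13452 genes matched a symbol. First exons were placed by their splice donor and last exons by their acceptor. Reading frames were followed from the M21 start codon. Shares were given where a gene had 20 or more counts in the class. Intervals of differences are Newcombe's, and those of ratios are exact, from the binomial split of both classes' counts. A level of 0 was read against 3 counts, and a share of 0 by its Clopper-Pearson limit.

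Named were the 4 members, isoforms with at least 5% of the gene's counts or leading in a class, the 3 most similar genes of each member, and the class-enriched genes of the actin list with the 10 highest folds. Other isoforms and Tmod3, Dstn, Tagln3, Ttr and Rpe65 were named after their values were seen. Members, lists and rules were chosen with earlier results of these data known. Column scaling was repeated with a trimmed mean of M-values and with the median of ratios, computed with numpy 2.4.6. The size rules and the Clopper-Pearson intervals were tested on simulated data that held counting error only. The switch rule was simulated with more counts in a class than any tropomyosin gene had in cones. Other variation between cells or samples was not simulated.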

Additional observations from a re-analysis of the deposited data

How the results depend on the processing

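No paired analysis was possible because no column of the table is tied to a library or a replicate number. Leaving out a replicate was likewise not possible with 1 pooled column per class. Of 80 alternative values, 60 stayed within the counting interval (or within 1.5 times, for a count of calls), 19 moved and 1 reversed. All Tpm isoforms have a model and at least 138 counts, so at least 35 of the 60 could not change and say nothing about stability. Others of the 60 were fixed too, such as spliced isoforms only for Tpm1, Tpm2 and Tpm3, which have no unspliced isoform. Other count minimums for the class-enriched and class-restricted rules could not change the tropomyosin calls either. The summing of equal intron chains changed nothing because no isoforms of a tropomyosin gene share a chain. With the median of ratios, the ratio of the highest to the next class was 4.38 for Tpm1, 5.69 for Tpm2 and 1.38 for Tpm3, and with spliced isoforms only it was 2.35 for Tpm4, an alternative chosen after seeing the data. With Ensembl transcripts alone, which leaves out every double-exon isoform and every start in an extended exon 2b, the differences in double inclusion between cones and RGC (Tpm1) and between rods and RGC (Tpm3), and in the Tpm2 extended start between AC and cones, were 0. The same restriction gave 42.7 points for Tpm1 exon 1a (RGC minus BC), 98.2 for Tpm2 6a and for Tpm2 9d (MG minus AC), and 96.9 for Tpm3 6a (MG minus RGC) and 9c (RGC minus MG). It reversed Tpm1 9c (AC minus cones) to -11.0 points, with 24 cone counts left. Without starts in the extended exon 2b the Tpm1 exon 1a difference was 38.6 points. Switched pairs rose from 12 to 25 at 25 percentage points, where 38.4% of all genes compared switched. At 4-fold 1 gene, Tpm2, was class-enriched (13.0% of all genes tested), and at 95% of summed CPM 0 isoforms were restricted (15.1% of all). With at least 50 counts, 5 of 23 tropomyosin isoforms were restricted, against 11.1% of all. Of 12 genes most like a member, 7 were kept with a pseudocount of 0.1, 4 with 10 and 3 with CPM shares. Depth limits Tpm1 in MG (13 counts) and the cone column (61 to 106 counts a gene).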

Other observations

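Tpm4 had 1 spliced isoform (ENSMUST00000003575.10, exons 1b to 9, 248 codons) and 1 unannotated unspliced isoform of 2268 bases that runs from exon 1b into the intron after it. The unspliced isoform held 44.6% of Tpm4 counts in BC (157 of 352), 25.3% in MG (63 of 249), 14.7% in AC (212 of 1444), 13.6% in rods (52 of 382), 10.7% in RGC (30 of 280) and 5.80% in cones (4 of 69). Its level was 10.3 CPM in MG, 8.55 in RGC, 5.41 in BC, 4.39 in AC, 0.938 in rods and 0.547 in cones. The spliced isoform was at 71.2 CPM in RGC, 30.3 in MG, 25.5 in AC, 8.90 in cones, 6.72 in BC and 5.95 in rods. The intervals of MG and AC, of cones and BC, and of BC and rods overlapped. An antisense gene, Gm26586, overlaps the end of the unspliced isoform in the annotation, and whether the counting used strand is not given in the sources used here.

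Exon 6a and 6b differ at 33 of 76 bases in Tpm1, 35 in Tpm2 and 37 in Tpm3. Tpm2, the gene with no double-exon isoform in the table, had 597 counts with 6a and 921 with 6b.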
